A study of Mus musculus with 24 samples.

Results

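The 10 genes described here encode enzymes of the peroxisomal matrix that lie outside the long catalogue of β-oxidation, catalase and ether lipid enzymes: Dao, Ddo, Pipox, Phyh, Hacl1, Nudt7, Nudt19, Ephx2, Lonp2 and Pecr. They are defined by what they do, although the group was drawn up with earlier results of these data known, and are 10 of the 55335 genes counted. All 10 were among the 16092 genes tested, which had to reach 1 CPM, that is counts relative to library size, in 1 kidney or more. RNA-seq was performed on 24 whole kidneys of adult mice, 6 in each of 4 groups. cKOm (male) and cKOf (female) carried Pex5lox/lox, Pax8-rtTA and LC1, a doxycycline-dependent Cre transgene, whereas Ctrlm and Ctrlf were littermates with Pex5lox/lox alone. Both genotypes were on the C57BL/6J background and were given doxycycline (DOX) for 2 weeks, starting at 8 weeks of age. Kidneys were taken 4 weeks after it ended. Pax8-rtTA was used to direct the deletion to the renal tubule. Vessels, glomerular tuft and immune cells in each sample were not its target, and Pex5 in them was not measured separately. The labels number the samples within a group, and the study describes its male transcript values as coming from 6 mice of each genotype. For the female samples the sources used here do not say that each came from its own mouse, so the female p-values measure the spread between these samples.

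The peroxisomal matrix has no ribosomes, and all of its enzymes are imported folded from the cytosol. Most of them end in a short C-terminal tripeptide, the peroxisome targeting signal 1 (PTS1), which is read by the receptor PEX5. A few carry an N-terminal PTS2 instead, which is read by PEX7 together with the long form of PEX5. A deletion of Pex5 therefore acts on import of the proteins, and the counts given here are of their transcripts. In the kidney, peroxisomes are most abundant in the proximal tubule, where D-amino acid oxidase was among the first enzymes localized to the organelle.

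The ends of the 10 coding sequences are shown because they encode the signal that PEX5 reads. Each line gives the last 10 codons, 5′ to 3′, stop codon included, from the gene's principal protein-coding transcript in GENCODE M21 (by APPRIS rank), and capitals mark the 3 codons before the stop.
Dao: ttgtccaggttgcctcccTCCCACCTCtga
Ddo: aggacccctgcttccttgTCGAAGCTGtag
Pipox: ttctctacgctgagcaaaGCCCACCTTtga
Nudt7: ctttggagatattctttaAGCAAGTTGtga
Nudt19: gtgaataagagatgtactGCCCACCTGtaa
Ephx2: cagaacccatcagtgaccTCCAAGATTtag
Lonp2: agacctggtctcattgacAGCAAACTAtag
Pecr: gaatcttttaagaagaaaGCCAAGCTCtaa
Hacl1: tttcactggctcacccgtTCTAACATGtga
Phyh: cttgtgaaaggagaaagaATAAACATTtga
All 10 capitalised ends differ in their bases. The first 9 belong to proteins known to be imported through the C-terminal signal. Phyh is a PTS2 protein, so its end is shown for contrast. Its coding sequence holds 338 codons before the stop, against 236 in Nudt7, the shortest of the 10, and 852 in Lonp2, the longest.

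Library depth ranged from 19376152 to 28470831 reads on genes, with a median of 21592602. CPM below are scaled by the trimmed mean of M values (TMM). Pex5 itself, counted over all its exons, stood at 54.3 ± 4.63 CPM in Ctrlm and 43.7 ± 1.94 in cKOm (SD, n = 6 kidneys in every group), and at 50.3 ± 6.97 in Ctrlf and 43.6 ± 3.55 in cKOf. The fall passed the test in males (log2 fold change −0.31, SE 0.08, adjusted p = 0.0219 by edgeR's quasi-likelihood test) but not in females (−0.21, SE 0.08, adjusted p = 0.177). The male and female falls were not shown to differ (difference −0.10, SE 0.12, adjusted p = 0.754, edgeR). These counts do not separate full-length Pex5 transcript from any transcript of the recombined allele, so they do not measure the extent of deletion. The paper reports PEX5 protein as virtually absent in cKOm but detectable, at a lower level, in cKOf. It also reports some residual full-length Pex5 mRNA in cKOf, and almost no peroxisomes in proximal tubules of either cKO group. Proximal tubule markers were abundant in every kidney. The 9 markers of the S1 and S2 segments summed to between 8679 and 11446 CPM per kidney, and no marker of the 10 cell types examined was at 0 in all kidneys. One set of libraries stood apart. Transcripts of 10 hepatocyte genes summed to between 428 and 935 CPM in 5 male kidneys, 4 of them Ctrlm and 1 cKOm, but to between 48.7 and 119 CPM in the other 19. Values of the male genotype effect without those 5 kidneys, which leaves 2 Ctrlm and 5 cKOm, are given further on.

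Compared per length of exon, the 10 genes spanned a wide range of levels in the control kidneys. In Ctrlm, Phyh was highest at 271 ± 34.5 CPM per kb. Nudt19 (205 ± 72.1), Pecr (203 ± 31.3), Pipox (174 ± 18.2), Ephx2 (169 ± 30.2) and Dao (109 ± 17.3) followed. Neighbours in the order among these upper 6 overlapped in CPM per kb, so the order of one against the next was not resolved by these kidneys. Genes further apart in the order were not compared in this way. Below them Lonp2 (26.6 ± 1.87), Ddo (9.19 ± 2.33), Nudt7 (3.64 ± 0.492) and Hacl1 (0.446 ± 0.197) were separated from each other with no overlap. In Ctrlm, Dao ranked at the percentile 98.1 of all tested genes by level per length, and Hacl1 at the percentile 15. The 4 lowest kept that order in all groups. Among the upper 6, Phyh was first in every group and did not overlap the next gene in cKOm, Ctrlf and cKOf, while Ephx2 was last of the 6 in both female groups at 57.4 ± 5.29 (Ctrlf) and 65.1 ± 7.8 CPM per kb (cKOf).

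**Figure D1:**
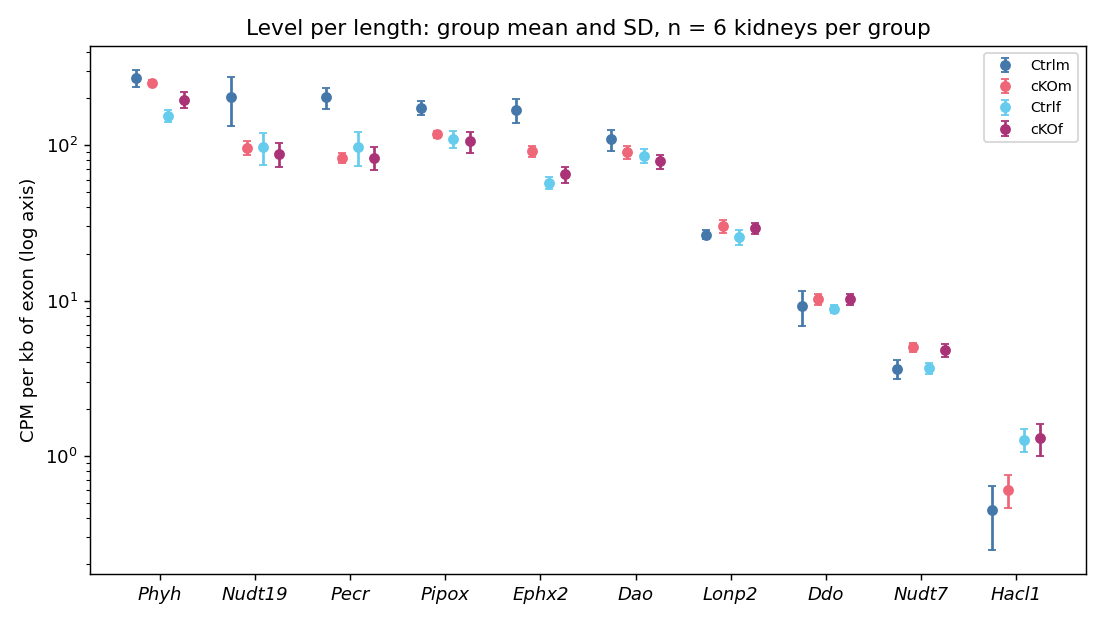
Transcript level of each enzyme in CPM per kb of exon on a log axis, with genes ordered by their mean in Ctrlm. Points are group means and bars are SD over 6 kidneys. The upper 6 genes, from Phyh at 271 to Dao at 109 CPM per kb in Ctrlm, lie close together, whereas Lonp2, Ddo, Nudt7 and Hacl1 step down to 0.446.

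In males, 5 of the 10 transcripts differed between genotypes (9.05% of all tested genes did). Pecr, Nudt19, Ephx2 and Pipox fell and Nudt7 rose, against shares of 4.9% of all genes that fell and 4.14% that rose. All 5 also had no overlap between the 6 Ctrlm and the 6 cKOm kidneys, which held for 7.38% of all tested genes. In females, 2 of 10 transcripts passed the test, Phyh and Nudt7, and both rose (0.851% of all tested genes changed and 0.391% rose). The median log2 fold change over the 10 genes was −0.19 in males and 0.10 in females, beside 0.01 and 0.00 over all tested genes.

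Pecr, the peroxisomal trans-2-enoyl-CoA reductase that saturates the phytol-derived enoyl-CoA on its way to phytanoyl-CoA, showed the largest change of the 10. Its level ran from 244 to 375 CPM in Ctrlm with a median of 296, and from 116 to 139 in cKOm with a median of 123. Every cKOm kidney was therefore below every Ctrlm kidney. The mean went from 307 ± 47.5 to 125 ± 9.51 CPM (log2 fold change −1.29, SE 0.13, adjusted p = 2.6e-07, edgeR). In females Pecr ranged from 106 to 190 CPM in Ctrlf (median 148) and from 102 to 146 in cKOf (median 129). These female groups overlapped along most of their range (log2 fold change −0.23, SE 0.13, adjusted p = 0.418). Pecr lies on GRCm38 chr1:72259167-72284314, minus strand, and 175 of its 1516 exon bases are shared with D230017M19Rik on the opposite strand.

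The pair of Nudix hydrolases went in opposite directions. Both enzymes hydrolyse coenzyme A and its acyl esters inside the organelle. Nudt19 is the abundant one in kidney and ranged from 336 to 836 CPM in Ctrlm (median 505) but from 213 to 283 in cKOm (median 264). The Ctrlm kidneys were widely scattered, with a coefficient of variation of 35.2% against 10.2% in cKOm, and still did not overlap with cKOm. The mean was 550 ± 193 CPM in Ctrlm and 258 ± 26.3 in cKOm (log2 fold change −1.09, SE 0.18, adjusted p = 1.6e-04, edgeR). In females Nudt19 ran from 209 to 366 CPM in Ctrlf and from 177 to 283 in cKOf, with medians of 243 and 246 (log2 fold change −0.15, SE 0.18, adjusted p = 0.764). The gene lies on GRCm38 chr7:35547185-35556304, minus strand, where B230322F03Rik covers 938 of its 2680 exon bases on the opposite strand. That antisense gene had at most 30 counts in any kidney.

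Nudt7 was the 1 enzyme of the 10 that rose in both sexes. It measured 15.8 to 24 CPM in Ctrlm (median 20.6) and 24.8 to 30.2 in cKOm (median 28.6). Females gave 17.8 to 22.3 CPM in Ctrlf (median 21.4) and 23 to 29.1 in cKOf (median 27.8). In neither sex did the genotypes overlap. For non-overlapping groups the female background was 0.559% of tested genes. The log2 fold change was 0.46 in males (SE 0.09, adjusted p = 0.00161) and 0.38 in females (SE 0.09, adjusted p = 0.01, edgeR). The male call was lost without the 5 hepatocyte-rich kidneys (0.33, adjusted p = 0.261) and the female call with adjustment over the female tests alone (adjusted p = 0.0839). The difference of these 2 effects was 0.08 with a 95% interval from −0.19 to 0.35. Nudt7 (GRCm38 chr8:114133557-114154739, plus strand) was also the second lowest of the 10 genes per length, with 319 to 696 counts per kidney.

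Ephx2, soluble epoxide hydrolase, turns epoxides of fatty acids, among them the epoxyeicosatrienoic acids that dilate renal vessels, into diols, and is found in both cytosol and peroxisomes. Its level was 335 to 538 CPM in Ctrlm (median 415) and 201 to 252 in cKOm (median 232), with a wide gap between the groups. The mean was 419 ± 75.1 CPM in Ctrlm and 228 ± 19.2 in cKOm (log2 fold change −0.88, SE 0.10, adjusted p = 1.3e-06, edgeR). In females Ephx2 was 127 to 164 CPM in Ctrlf (median 139) and 139 to 190 in cKOf (median 158), so the cKOf kidneys lay slightly higher with overlap (log2 fold change 0.18, SE 0.10, adjusted p = 0.402). The gene lies on GRCm38 chr14:66084374-66124500, minus strand.

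**Figure D2:**
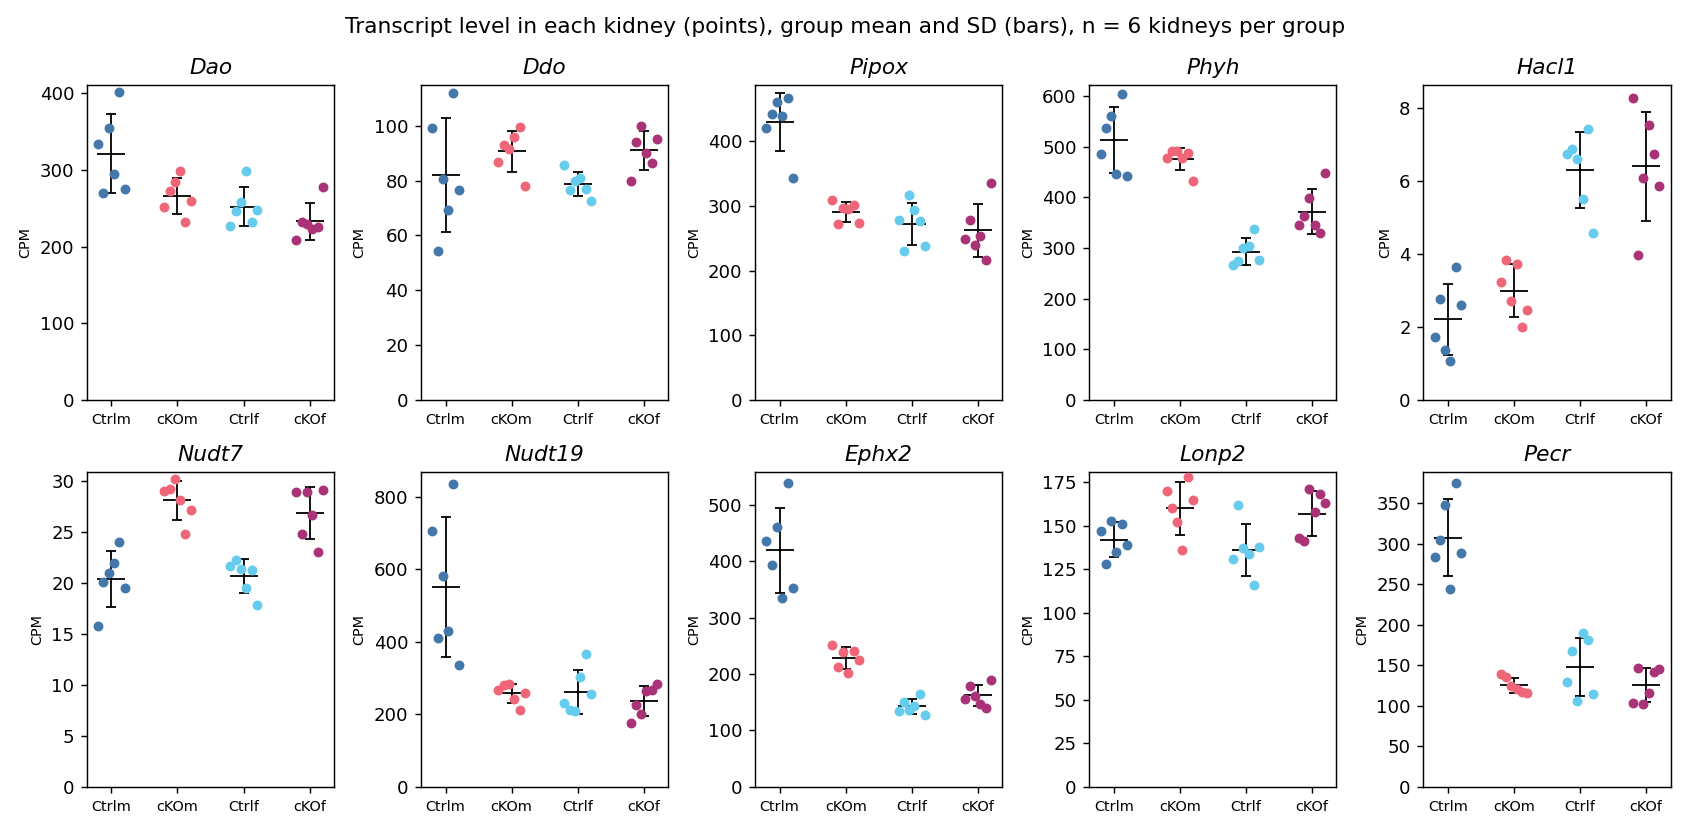
Transcript level (CPM, linear axes from 0) of the 10 enzymes in each kidney by group. Points are single kidneys, the horizontal mark is the group mean and bars are SD (n = 6). In Pecr, Nudt19, Ephx2 and Pipox the Ctrlm kidneys sit above all cKOm kidneys, while in Nudt7 both cKO groups sit above their controls.

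Among the oxidases of unusual amino acids, Pipox fell in males and the 2 D-amino acid oxidases did not pass the test. Pipox oxidises L-pipecolate, a product of lysine breakdown, and sarcosine. It ranged from 343 to 467 CPM in Ctrlm (median 441) and from 272 to 309 in cKOm (median 296). The lowest Ctrlm kidney, replicate 6, stood well below the other 5 and was still above all cKOm kidneys. The mean was 429 ± 44.9 CPM in Ctrlm and 291 ± 15.6 in cKOm (log2 fold change −0.56, SE 0.10, adjusted p = 3.0e-04, edgeR). Female values were 231 to 317 CPM in Ctrlf and 217 to 335 in cKOf, with medians of 277 and 251 (log2 fold change −0.05, 95% interval −0.25 to 0.14, adjusted p = 0.856). Pipox lies on GRCm38 chr11:77880615-77894096, minus strand.

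Dao oxidises neutral D-amino acids such as D-serine and D-alanine to keto acids with release of hydrogen peroxide. It was measured at 270 to 401 CPM in Ctrlm (median 314) and at 232 to 299 in cKOm (median 266). The cKOm kidneys tended lower but overlapped Ctrlm, and the test across all genes was not passed (log2 fold change −0.27, SE 0.10, adjusted p = 0.11, edgeR). A two-sided exact permutation test on the CPM of this gene alone gave p = 0.039, with no correction over the 10 genes and 2 sexes. Without Ctrlm replicate 6 the edgeR call was gained (−0.34, adjusted p = 0.039), and without the 5 hepatocyte-rich kidneys the log2 fold change was larger but not called (−0.42, adjusted p = 0.133). In females Dao was 227 to 299 CPM in Ctrlf and 209 to 278 in cKOf (log2 fold change −0.11, SE 0.10, adjusted p = 0.64).

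Ddo, the oxidase for the acidic D-aspartate and D-glutamate, was the less abundant of the 2. In males it was 54.5 to 112 CPM in Ctrlm and 78 to 99.5 in cKOm, where all cKOm kidneys lay inside the Ctrlm range (log2 fold change 0.15, SE 0.11, adjusted p = 0.606). In females it was 72.6 to 85.6 CPM in Ctrlf and 79.7 to 100 in cKOf, with medians of 78.5 and 92.1. These female groups overlapped by a few CPM. The edgeR test was not passed (log2 fold change 0.21, SE 0.11, adjusted p = 0.391), and the two-sided exact permutation test of this gene alone gave p = 0.0108. Dao lies on GRCm38 chr5:114003703-114025682 and Ddo on GRCm38 chr10:40630011-40681847, both on the plus strand.

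The enzymes of α-oxidation, which shortens the branched phytanic acid by 1 carbon, did not pass the test in males. Phyh, the phytanoyl-CoA hydroxylase that opens the pathway and is deficient in Refsum disease, measured 443 to 605 CPM in Ctrlm (median 511) and 433 to 491 in cKOm (median 483). All but the lowest cKOm kidney lay inside the Ctrlm range (log2 fold change −0.11, SE 0.09, adjusted p = 0.619). In females Phyh rose, from 266 to 337 CPM in Ctrlf (median 288) to 329 to 448 in cKOf (median 354). Only the top of Ctrlf overlapped the bottom of cKOf. The female mean was 293 ± 26.1 CPM in Ctrlf and 372 ± 44.5 in cKOf (log2 fold change 0.34, SE 0.09, adjusted p = 0.0157, edgeR). Adjusted over the female tests alone, this call was lost (adjusted p = 0.114), and without the 5 hepatocyte-rich male kidneys, which share the estimate of spread, it was lost as well (0.33, adjusted p = 0.0614). Phyh is on GRCm38 chr2:4919019-4938730, plus strand.

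Hacl1, the thiamine-dependent lyase that cuts 2-hydroxyphytanoyl-CoA in the next step, was the least abundant of the 10, with 21 to 232 counts per kidney. It ranged from 1.08 to 3.65 CPM in Ctrlm and from 2.01 to 3.83 in cKOm (log2 fold change 0.43, SE 0.24, adjusted p = 0.399). Female values were 4.59 to 7.42 CPM in Ctrlf and 3.97 to 8.28 in cKOf (log2 fold change 0.02, SE 0.23, adjusted p = 0.979, edgeR). The 95% interval of the genotype effect was wide, from −0.07 to 0.93 in males and from −0.45 to 0.49 in females. The coefficient of variation between kidneys of a group reached 44.2% in Ctrlm and was 23.4% in cKOf. The level itself is uncertain. On GRCm38 chr14:31598730-31641286, minus strand, 1540 of the 4945 exon bases of Hacl1 (31.1%) are shared on the same strand with the gene model Gm49387, which was counted at 0 in all kidneys, and reads there may have been assigned to neither gene.

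Lonp2, the peroxisomal Lon protease that clears damaged or unfolded matrix proteins, was the steadiest of the 10 in Ctrlm, with a coefficient of variation of 7.05%. It measured 128 to 153 CPM in Ctrlm and 136 to 178 in cKOm, with medians of 143 and 163. In females it was 116 to 162 CPM in Ctrlf and 141 to 171 in cKOf, with medians of 135 and 161. The cKO medians were the higher ones in both sexes and all these groups overlapped. Neither effect passed the edgeR test (males 0.17, SE 0.08, adjusted p = 0.274, females 0.21, SE 0.08, adjusted p = 0.164, as log2 fold change). The exact permutation tests of this gene alone gave p = 0.0368 in males and 0.0216 in females, two-sided and uncorrected. Such tests were run for all 10 genes in both sexes. For genes not called by edgeR they are printed only where p was under 0.05. The remaining uncalled genes gave permutation p from 0.0758 (Ephx2, females) to 0.883 (Hacl1, females). Lonp2 lies on GRCm38 chr8:86624043-86723873, plus strand.

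The control kidneys of the 2 sexes already differed in 7 of the 10 transcripts (16.8% of all tested genes did). In Ctrlm 6 were higher than in Ctrlf (8.71% of all genes were) and 1 was lower (8.11%). Ephx2 differed most among the 6, at 419 ± 75.1 CPM in Ctrlm and 143 ± 13.1 in Ctrlf, a 2.94-fold difference (log2 difference 1.55, SE 0.10, adjusted p = 5.7e-12, edgeR). Nudt19 was 2.09-fold (adjusted p = 6.0e-05), Pecr 2.07-fold (1.1e-06), Phyh 1.75-fold (5.7e-08), Pipox 1.58-fold (9.0e-06) and Dao 1.28-fold higher in Ctrlm (0.00962, edgeR). Hacl1 went the other way, at 2.21 ± 0.975 CPM in Ctrlm and 6.3 ± 1.04 in Ctrlf (log2 difference −1.51, SE 0.24, adjusted p = 2.8e-05). Without the 5 hepatocyte-rich kidneys this difference was −0.98 (adjusted p = 0.0279). Groups did not overlap for 5 of these genes, namely Ephx2, Pecr, Phyh, Pipox and Hacl1 (7.35% of all genes). Ddo, Nudt7 and Lonp2 differed by 0.06 or less on the log2 scale, and their 95% intervals reached at most 0.30 in size. Without the 5 hepatocyte-rich kidneys the difference was 0.29 for Ddo (SE 0.12, adjusted p = 0.159), 0.10 for Nudt7 and 0.11 for Lonp2, and none of the 3 was called. Cell type markers differed between the control groups too. In Ctrlm 9 of 10 hepatocyte markers were higher than in Ctrlf (median log2 difference 2.96), and 4 of 5 thick ascending limb markers (median −0.44), 4 of 5 podocyte markers (−0.39), 2 of 4 distal convoluted tubule markers (−0.50) and 2 of 8 collecting duct markers (−0.29) were lower. Among S3 markers 2 of 9 were higher and 4 lower, and among S1 and S2 markers 2 of 9 were higher and 3 lower. Their part in the sex differences was not tested beyond the fits without the 5 kidneys and with the hepatocyte covariate.

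Between the cKO groups the sex differences were smaller for the transcripts that were higher in Ctrlm than in Ctrlf. These ratios had no test of their own. They combine the control sex difference with the interaction given below, which did not pass for Dao (adjusted p = 0.659, edgeR). Pecr stood at 125 ± 9.51 CPM in cKOm and 126 ± 20.9 in cKOf, a ratio of 0.996. The ratio of cKOm to cKOf was 1.09 for Nudt19, 1.11 for Pipox, 1.14 for Dao, 1.28 for Phyh and 1.41 for Ephx2. The cKOm kidneys overlapped the Ctrlf range for Pecr, Nudt19, Pipox and Dao, while for Ephx2 and Phyh all cKOm kidneys stayed above all Ctrlf kidneys. Hacl1 kept its female excess, at 3 ± 0.723 CPM in cKOm and 6.41 ± 1.5 in cKOf with no overlap. Ephx2 did not overlap between cKOm and cKOf either, with cKOm higher. The share of all tested genes without overlap was not computed for cKOm against the female groups. The genotype and sex contrasts share the Ctrlm kidneys, so a value that is high in these kidneys moves both of them.

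Whether the genotype acted unequally in the sexes was tested as an interaction, and 5 of 10 transcripts passed (2.31% of all tested genes did). The paper proposes incomplete excision of Pex5 in cKOf, where some full-length mRNA and protein remained. Sex and extent of deletion therefore cannot be told apart in this test. In all 5 the male effect was the lower one (1.49% of all genes). For Ephx2 the difference of log2 fold changes was −1.06 (SE 0.14, adjusted p = 5.4e-05) and for Pecr −1.06 (SE 0.19, adjusted p = 0.00127, edgeR). These 2 calls were kept under all 32 alternative fits. Nudt19 (−0.94, adjusted p = 0.0392), Pipox (−0.50, 0.0422) and Phyh (−0.45, 0.0458) passed only just. Their calls were lost under 21, 20 and 23 of the 32 alternatives, most of which left out a single kidney. Leaving out 1 kidney gave an adjusted p of at most 0.0815, 0.0825 and 0.0869, and over all alternatives the largest was 0.136, 0.236 and 0.123. The differences themselves stayed between −1.09 and −0.78 for Nudt19, between −0.59 and −0.42 for Pipox and between −0.52 and −0.39 for Phyh. The remaining 5 genes did not pass, with differences between −0.16 for Dao and 0.41 for Hacl1.

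**Figure D3:**
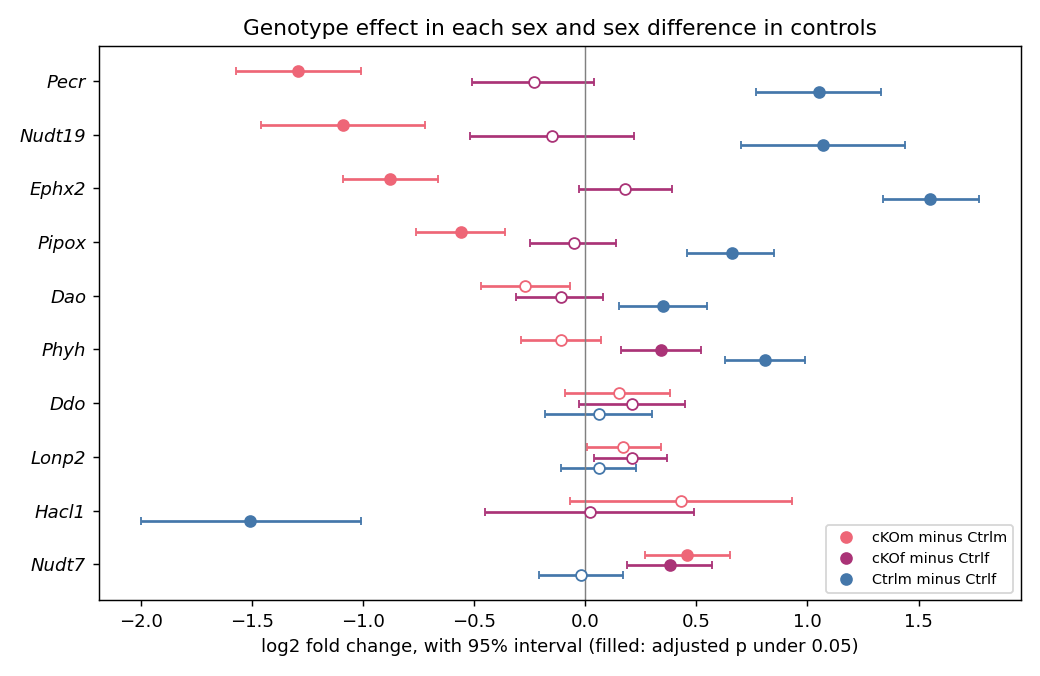
Log2 fold change of each enzyme for cKOm against Ctrlm, cKOf against Ctrlf and Ctrlm against Ctrlf, with 95% intervals and filled points for an adjusted p under 0.05. Genes are ordered by the male genotype effect, from Pecr at −1.29 to Nudt7 at 0.46. The 4 genes that fell in males have female intervals that include 0.

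Transcripts of other cell types differed between the male groups, and their part in the results was not tested beyond the values that follow. Hepatocyte markers summed to a median of 607 CPM in Ctrlm and 77.4 in cKOm, and 3 of 10 were called lower in cKOm. The high sums were those of 4 Ctrlm kidneys and 1 cKOm kidney. Liver is also known to express most of the 10 enzymes. In the 2 Ctrlm kidneys with few hepatocyte transcripts, Pecr was 288 and 375 CPM against at most 139 in the 5 such cKOm kidneys. Ephx2 was 352 and 538 CPM against at most 252, Nudt19 336 and 836 against at most 283, and Pipox 343 and 467 against at most 309. For these 4 genes the full Ctrlm and cKOm groups did not overlap, so any part of them had to lie apart as well. Without the 5 hepatocyte-rich kidneys, an alternative added after the data were seen, the male log2 fold change was −1.43 for Pecr (adjusted p = 1.3e-04), −0.97 for Ephx2 (3.4e-04) and −1.21 for Nudt19 (0.00775, edgeR). Pipox kept its size at −0.52 but lost its call (adjusted p = 0.0781), and Nudt7 was at 0.33 (0.261). The 2 remaining Ctrlm kidneys had 19.5 and 24 CPM of Nudt7, below the lowest cKOm kidney, as all Ctrlm kidneys were. Ddo and Hacl1, not called in either fit, changed sign to −0.11 and −0.17, while Phyh (−0.18) and Lonp2 (0.15) were again not called. With a hepatocyte score (the mean log2 CPM of the 10 markers) as a covariate, all 5 male calls were kept, and the sex difference of Dao in controls lost its call (0.25, adjusted p = 0.239).

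**Figure D4:**
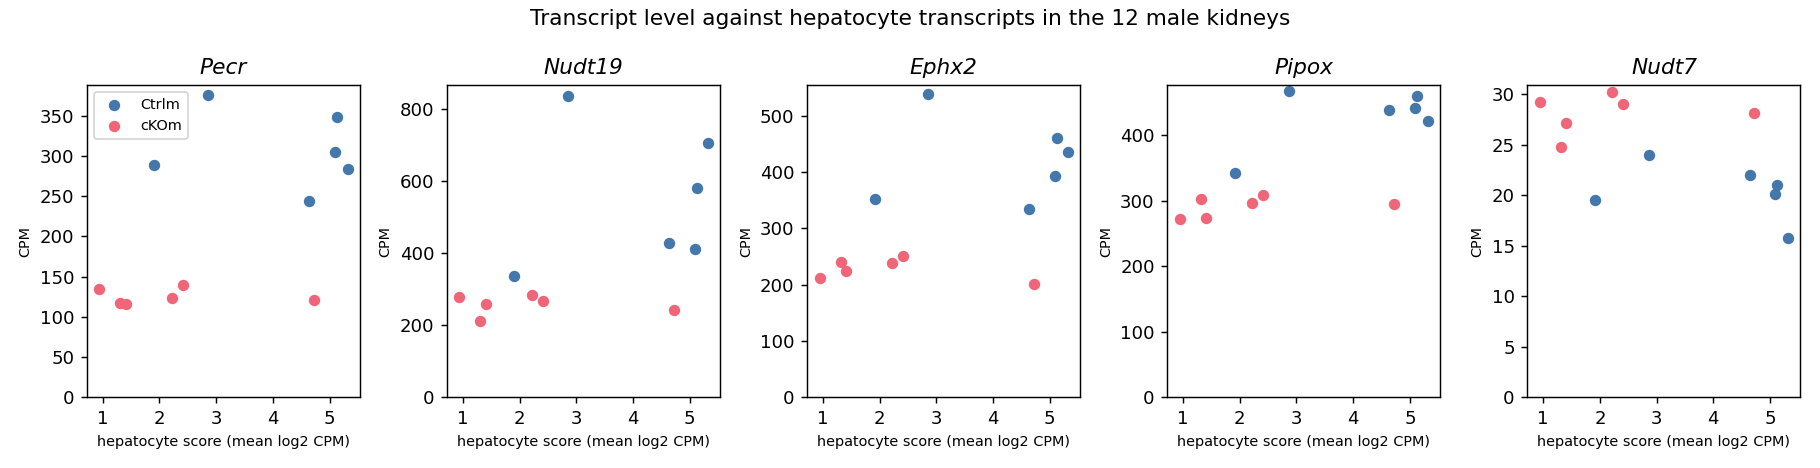
Level (CPM) of the 5 enzymes that changed in males against the hepatocyte score (mean log2 CPM of 10 markers) in the 12 male kidneys, by group. At low scores, the 2 Ctrlm kidneys lie above the cKOm kidneys in Pecr, Nudt19, Ephx2 and Pipox and below them in Nudt7, whose lowest cKOm kidney stood at 24.8 CPM. The full groups did not overlap for these genes, so any part of them lies apart too.

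Kidney cell markers differed too. Over all tested genes, 4.9% were called lower and 4.14% higher in males. The 9 markers of the S3 segment of the proximal tubule summed to 3649 to 4702 CPM in Ctrlm and 2012 to 2430 in cKOm, and 5 of 9 fell. Among them Slc22a7, an organic anion transporter, had the lowest log2 fold change (−4.10, SE 0.30, adjusted p = 1.2e-09, edgeR). Slc7a9 had the highest of the 9 S3 markers (0.19, SE 0.14, adjusted p = 0.608). The median over these 9 was −0.27, and 2 of them had a positive value. The S1 and S2 markers summed to 10066 to 11234 CPM in Ctrlm and 8679 to 9538 in cKOm. Of these 9 markers, 3 were called lower and 4 had a positive value (median log2 fold change −0.09). The highest was Slc5a12 (0.63, SE 0.19, adjusted p = 0.0512, edgeR). Thick ascending limb markers summed to 4741 to 5964 CPM in Ctrlm and 6113 to 7040 in cKOm, with 2 of 5 higher. In the collecting duct list 2 of 8 were higher and 1 lower in males. The lower one, the anion exchanger Slc4a1 of intercalated cells and red cells, also fell in females (−0.68, adjusted p = 0.00259 in males, −0.70, 0.00172 in females) and was the 1 marker of all lists called in females. Macrophage markers had a median log2 fold change of −0.54 in males, with 1 of 6 called lower, and of −0.43 in females. In females the S3 sum was 2591 to 3437 CPM in Ctrlf and 2353 to 2858 in cKOf. In these whole-kidney samples, fewer cells of a segment and less RNA per cell cannot be told apart.

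The other genes of the same pathways were read from 6 lists, with the 10 enzymes left out of every count. Of all tested genes, 4.9% fell and 4.14% rose in males, and 0.851% were called in females. At that female share, 0 calls in a list of this size say little about the list. In males 4 of 11 tested genes of α-oxidation and phytol handling fell (median log2 fold change −0.29). Amacr, the racemase that prepares 2-methyl acyl-CoA esters such as pristanoyl-CoA for β-oxidation, went from 281 ± 48.1 to 109 ± 6.37 CPM (−1.36, SE 0.09, adjusted p = 3.2e-10, edgeR). Slc27a2, the very-long-chain acyl-CoA synthetase and fatty acid transporter, fell by 0.50 on the log2 scale (adjusted p = 1.4e-04). The cytochrome P450 Cyp4f15 was barely expressed, at 2.12 ± 1.17 and 0.613 ± 0.281 CPM (−1.78, adjusted p = 0.03). Of the 10 tested genes around D-amino acids, sarcosine and pipecolate, 3 fell (median −0.24). These were the mitochondrial dimethylglycine dehydrogenase Dmgdh (−0.67, adjusted p = 2.6e-05) and the lysine-degrading enzymes Aass (−0.48, 0.0026) and Aldh7a1 (−0.38, 0.017), the latter acting just downstream of Pipox. In females neither list held a gene past the threshold by edgeR, limma-voom or DESeq2, and at an unadjusted p under 0.05 there were 0 of 11 and 2 of 10.

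Nudix hydrolases and genes of coenzyme A turnover went both ways in males, with 2 of 26 higher and 3 lower (median 0.02). Vnn1, the pantetheinase that recycles pantothenate from coenzyme A breakdown, rose from 119 ± 20.9 to 213 ± 24.9 CPM (0.85, SE 0.12, adjusted p = 2.3e-05, edgeR). It rose as well in females, from 110 ± 19.6 to 187 ± 17.2 CPM (0.77, SE 0.12, adjusted p = 7.7e-05), the 1 female call of this list. Coasy, which makes the last steps of coenzyme A synthesis, fell in males by 0.80 on the log2 scale (adjusted p = 1.5e-05), as did the ectonucleotidase Enpp3 by 0.52 (3.7e-05). Nudt7 and Vnn1 were thus both higher in cKO kidneys of either sex, without overlap between genotypes.

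Among epoxide hydrolases and epoxide-forming P450s, 1 of 11 was higher and 2 were lower in males (median 0.06). The P450 epoxygenases Cyp2j13 (−1.21, SE 0.28, adjusted p = 0.00836) and Cyp2j5 (−0.45, SE 0.09, adjusted p = 0.0025, edgeR) fell, and the microsomal hydrolase Ephx1 rose (0.33, SE 0.10, adjusted p = 0.0429). Cyp2j13 had its own sex pattern, with 373 ± 106 CPM in Ctrlm and 1.25 ± 0.94 in Ctrlf. These P450s belong to families of close copies, so reads could be split among them. The 1 female call was Cyp2c23, which went from 102 ± 25.8 to 68.6 ± 3.68 CPM (−0.56, SE 0.15, adjusted p = 0.0239).

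Of 10 organelle proteases and chaperones other than Lonp2, 4 fell in males (median −0.23). Tysnd1, the peroxisomal protease that processes imported β-oxidation enzymes, went from 29.8 ± 5.35 to 22.3 ± 1.29 CPM (−0.42, SE 0.11, adjusted p = 0.0161, edgeR), and the mitochondrial chaperone Hspd1 (−0.35, 0.0234) and protease subunit Clpx (−0.33, 0.0121) fell less. In females 0 of the 10 were called by edgeR, limma-voom or DESeq2, and 0 of 10 had an unadjusted p under 0.05. Of 8 enoyl-CoA and dienoyl-CoA reductases and isomerases other than Pecr, 2 rose and 1 fell in males (median 0.22). The peroxisomal Decr2 rose from 51.3 ± 6.89 to 82.8 ± 7.68 CPM (0.69, adjusted p = 4.3e-05) and the mitochondrial Decr1 by 0.29 on the log2 scale (0.0416), while the peroxisomal isomerase Eci3 fell by 0.81 (2.9e-05). In females the median of these 8 was 0.22 as well, with 0 calls by edgeR and limma-voom, 1 by DESeq2 and 3 at an unadjusted p under 0.05.

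**Figure D5:**
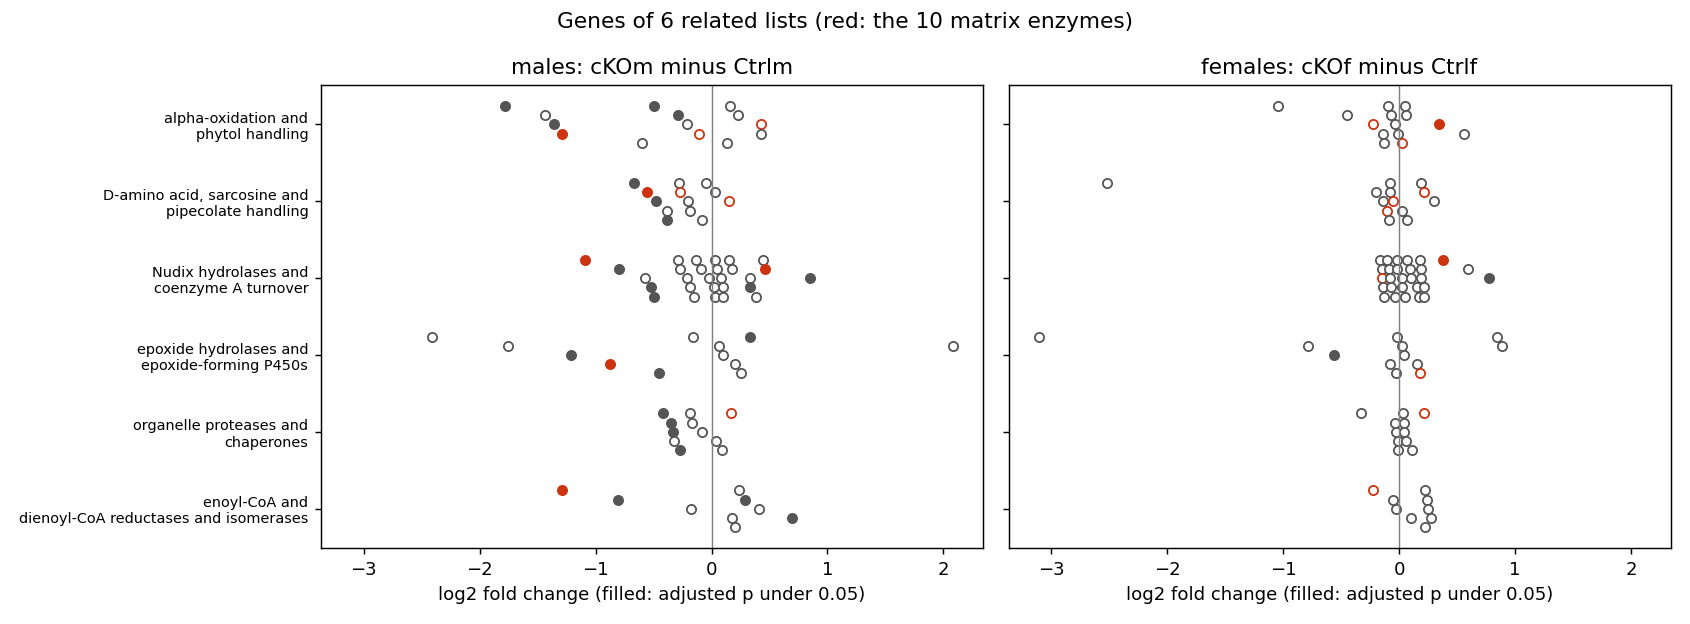
Log2 fold change by genotype for the tested genes of 6 pathway lists, males on the left and females on the right, with filled points for an adjusted p under 0.05 and the 10 enzymes in red. Points are offset vertically within a list for legibility. Filled points are common in males, such as Amacr at −1.36, and few in females, where Vnn1 reached 0.77.

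Within groups, the 10 transcripts varied together only in part. After the group means were subtracted, Pearson's r of log2 CPM over the 24 kidneys ranged from −0.16 for Pipox and Lonp2 to 0.76 for Phyh and Ephx2, with a median of 0.28 over the 45 pairs, and 11 pairs were above 0.5. All points share library depth and tissue composition, so these are descriptions only. Searched over 10777 protein-coding genes in the same way, Pecr was most like Snx1 (r = 0.89) and Nagk (0.85), Nudt19 most like Mrps7 (0.86) and Slc30a2 (0.83), and Ephx2 most like Dhrs1 (0.82) and Pycrl (0.81). Pipox was nearest to Inmt (0.80) and Gstz1 (0.80), Phyh to Hadh (0.87) and Dcxr (0.87), Dao to Tmbim6 (0.89) and Mrpl12 (0.88), and Ddo to Pdzk1 (0.93) and Dnaja2 (0.87). The likenesses were lowest for the sparsely counted genes, Hacl1 with Nln (0.74) and Sult1c2 (0.73) and Nudt7 with Fcf1 (0.71) and Pigc (0.71). Lonp2 was most like Camk1 (0.82) and Htra1 (0.81). None of the 10 enzymes had another of the 10 among its 2 nearest genes. Hacl1 could not be such a neighbour, because its mean was under the 5 CPM required of the genes searched.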

How the data were processed

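Libraries of poly(A) RNA from whole kidneys (TruSeq Stranded mRNA) were sequenced by the authors. Per the submitters' processing notes, reads were handled with cutadapt 1.8, STAR 2.5.3a and HTSeq 0.9.1 on GRCm38. The strand setting of the counting was not given in the sources used here. The deposited files hold raw counts per gene, 1 file per kidney, and 5 closing lines that name no gene were left out (per kidney, reads not aligned uniquely 26.9 to 34.8%, in no gene 4.45 to 6.66% and ambiguous 0.706 to 0.939% of the file's total). Gene names, exon lengths and coding sequences came from GENCODE M21, which held 55154 of the 55335 identifiers.

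Counts were scaled by TMM and fitted in edgeR 4.0.16 (quasi-likelihood) as 1 model of 4 groups over the 16092 genes that reached 1 CPM in 1 kidney or more. Male and female genotype p-values were adjusted together (Benjamini-Hochberg) over all genes, and those of the interaction and of the sex contrast each over all genes, at a threshold of 0.05. SE were derived from the F statistic and 95% intervals used 20 residual degrees of freedom. Permutation tests enumerated all 924 splits of 6 against 6 kidneys, with 0.00216 as the smallest two-sided p. Log2 CPM used a prior count of 2. The scripts were tested on simulated counts. Replicates of a group differed by more than sampling noise in all 60 pairs. Alternatives were limma-voom (limma 3.58.1), DESeq2 1.42.0, RLE scaling, other filters, each sex alone, adjustment within each sex, a replicate block, a hepatocyte covariate and leaving out each kidney. Near copies of the 10 genes were searched with BLAST 2.17.0.

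The 10 genes, the pathway lists and the marker lists were chosen with earlier results of these data known. Named beyond the 10 genes and Pex5 were, per pathway list and sex, up to 3 called genes of largest change, the extremes of marker lists described, and for each enzyme the 2 genes of highest within-group r with a mean of at least 5 CPM.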

Additional observations from a re-analysis of the deposited data

Results flagged for a closer look

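In 3 of the 40 sets of 6 kidneys examined (10 genes in 4 groups), 1 kidney stood apart from the other 5 by Dixon's test at the 95% level, where chance gives about 1 in 20. Dao was highest in cKOf replicate 6 at 278 CPM. Pipox was lowest in Ctrlm replicate 6 at 343 CPM, and Phyh was lowest in cKOm replicate 6 at 433 CPM.

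The male and female genotype effects differed by the interaction test for 5 genes (2.31% of all tested genes did), always with the male effect lower (1.49%). The difference of log2 fold changes was −0.50 for Pipox, −0.45 for Phyh, −0.94 for Nudt19, −1.06 for Ephx2 and −1.06 for Pecr. The calls of Pipox, Phyh and Nudt19 were lost under 20, 23 and 21 of the 32 alternative fits, and those of Ephx2 and Pecr under none.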

How the results depend on the processing

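The male count of 5 calls was the same in every fit that kept all kidneys and ran from 5 to 6 when 1 kidney was left out, and it was 3 without the 5 hepatocyte-rich kidneys (added after the data were seen). The female count of 2 was 2 under every leave-one-out fit, 0 with adjustment within each sex and 1 (Nudt7, with Phyh lost) without those 5 kidneys. Where these counts fell, the share of all tested genes called fell too. In males it went from 9.05% to 3.75% without the 5 kidneys. In females it went from 0.851% to 0.267% with adjustment within each sex and to 0.52% without the 5 kidneys. The interaction count of 5 was the least stable: 3 by limma-voom, 3 with every gene that had a count, 2 with the replicate block, 2 with the hepatocyte covariate, 2 without the 5 kidneys, and from 2 to 5 when 1 kidney was left out. The sex count of 7 became 6 with the hepatocyte covariate and was 7 under every leave-one-out fit. No called value changed sign. The cause of these shifts was not tested.

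Replicate numbers did not pair the kidneys: deviations of same-numbered kidneys correlated at −0.228 to 0.133 over 36 pairs (median −0.042), and 1 of 24 kidneys was closest to its own number. With the replicate block the calls were 5 in males and 2 in females. Hacl1 had the fewest counts of the 10 genes, from 21 to 232 per kidney, above the 3 counts that equal 0.105 CPM in the deepest kidney.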
